A study of Mus musculus with 192 samples.

Results

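The Cyp2 and Cyp3 genes of the mouse were taken here as the genes whose symbol is Cyp2 or Cyp3, then 1 letter for the subfamily, then a number. Of the 54752 genes listed, 55 members met this rule, 48 of family Cyp2 and 7 of family Cyp3, and 26 similar symbols, 23 of them pseudogenes, did not. Male mice formed 4 groups that crossed genotype with flight. They were of strain C57BL/6 and aged 12 weeks per the labels, and on a C57BL/6J background per the study's methods. In these methods 12 weeks is the age reached before launch, so flight tissues came from older mice. Wild-type mice (WT) and Nrf2 knockout mice (Nrf2-KO, or KO, which lack functional Nrf2, the transcription factor encoded by Nfe2l2, in every tissue) either stayed on the International Space Station (FL_WT and FL_KO) or in the same housing on the ground (GC_WT and GC_KO). The knockout line carries the germ-line allele Nfe2l2tm1Ymk, and KO mice had been screened for the absence of an intrahepatic shunt. The methods describe this screen, a challenge with ketamine and xylazine, for KO mice and not for WT mice. Flight mice were dissected in the United States about 2 days after splashdown and ground mice in Japan months later, so flight cannot be told apart from site and date. Per the methods, flight mice were moved from CRF-1 to flight food before launch, and CRF-1 is the food named for ground mice. Any difference in food cannot be told apart from flight either. RNA was sequenced from liver (Liv), kidney (Kid), temporal bone (TpB), mandibular bone (MdB), white adipose tissue (eWAT), brown adipose tissue (iBAT), spleen (Spl), thymus (Thy) and cerebrum (Cbr). Each group had 6 mice, 3 in Kid and MdB, except FL_KO, which had 5 mice, 3 in Kid and 2 in MdB, after flight mouse FL04 was left out.

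Members of these families are heme enzymes of the endoplasmic reticulum. They insert 1 atom of oxygen into drugs, plant compounds, steroids, bile acids and fatty acids, with electrons passed on by the reductase Por or by cytochrome b5. Hepatocytes hold most of them, many only around the central vein of the liver lobule, and several differ between the sexes through the pulses of growth hormone. Foreign compounds raise Cyp2b, Cyp2c and Cyp3a members through the receptors CAR (Nr1i3) and PXR (Nr1i2), and Cyp2a5 is a member known to depend on Nrf2 in liver.

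Levels are given as TPM (transcript units scaled by gene length to the same total in every sample). In GC_WT mice the number of members with a mean of 1 TPM or more was 34 in Liv, 17 in Kid, 13 in eWAT, 12 in TpB, 11 in Spl, 10 in MdB, 7 in iBAT, 7 in Cbr and 5 in Thy. Liver was the tissue of the highest mean for 29 members, kidney for 6, TpB for 3, Cbr for 2, eWAT for 1 and iBAT for 1. The other 13 members stayed under 1 TPM in every tissue of GC_WT mice, with the highest mean at 0.903 TPM (Cyp2b9 in Liv). Only Cyp2e1 and Cyp2d22 reached 1 TPM in all 9 tissues, and 21 members did so in a single tissue.

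The summed TPM of all members was 18515 ± 1894 in Liv (SD, n = 6), 7515 ± 1934 in eWAT (n = 6) and 4048 ± 290.4 in Kid (n = 3). Cyp2e1, which oxidises ethanol, acetone and other small molecules, led in all 3 tissues, with 6171 ± 1216 TPM in Liv, 7335 ± 1914 TPM in eWAT and 1437 ± 157 TPM in Kid. Its level in eWAT and that in Liv did not differ beyond their spread. Cyp2e1 made up 97.6% of the sum in eWAT but 33.3% in Liv, where Cyp3a11, the main drug-oxidising Cyp3a of mouse liver, followed with 2586 ± 358 TPM (14.0% of the sum) and Cyp2d9, a steroid hydroxylase of male mice, with 1237 ± 315 TPM. In Kid the next were Cyp2j5, an epoxygenase of arachidonic acid, with 1011 ± 74.6 TPM and Cyp2a4, a testosterone hydroxylase, with 539 ± 32.5 TPM.

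Elsewhere the sums were lower, from 450.2 ± 214 TPM in TpB to 21.9 ± 6.36 TPM in Thy. Leading members were Cyp2f2 in TpB (238 ± 167 TPM), a naphthalene oxidase of the airways that is also periportal in liver, and Cyp2e1 in iBAT (155 ± 97.1 TPM) and Spl (16.4 ± 10.4 TPM). Cyp2d22 led in MdB with 37.1 ± 3.82 TPM (n = 3). In Cbr the leader was Cyp2j9, with 41.0 ± 2.70 TPM, and its mean there was the highest of any tissue. Cyp2b10, a CAR target of liver, was highest in iBAT at 84.9 ± 41.3 TPM, against 6.04 ± 4.23 TPM in Liv.

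**Figure D1:**
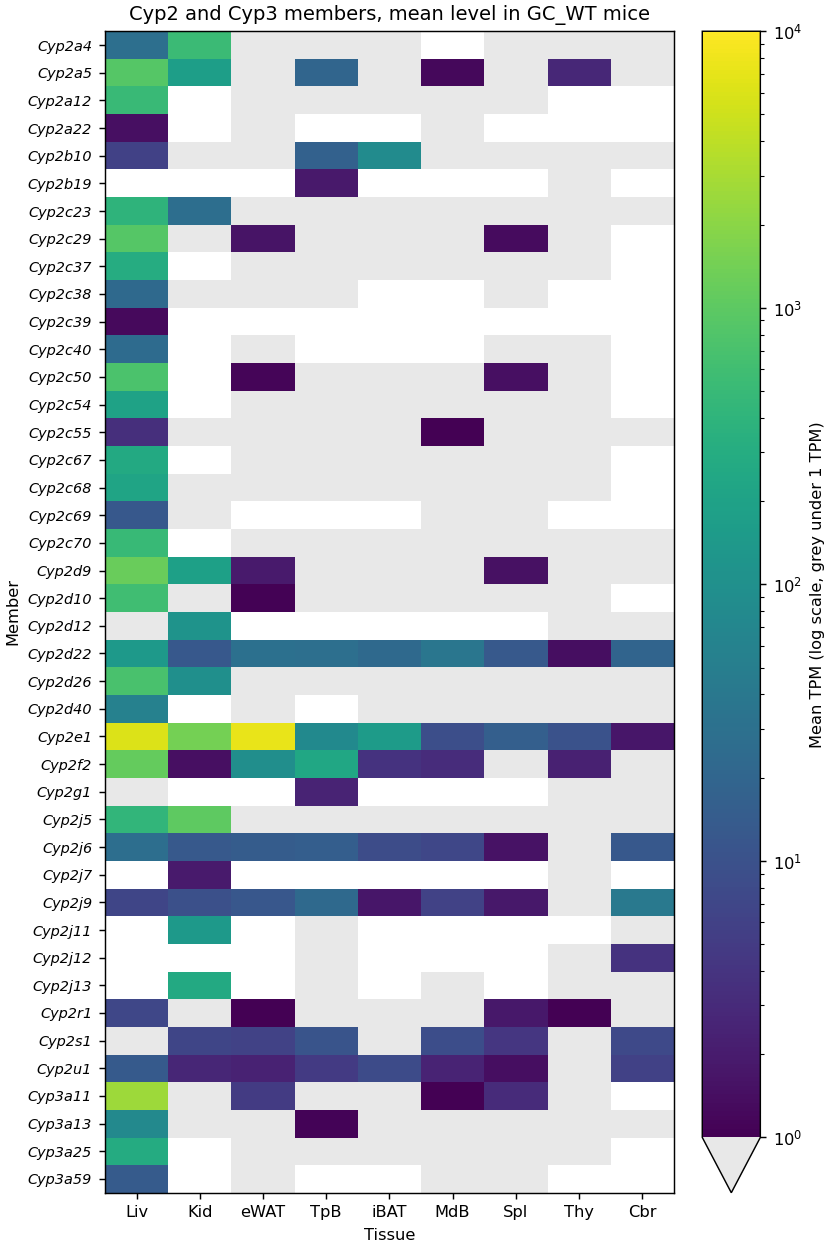
Mean TPM of each member (rows) in each tissue (columns) over the GC_WT mice, colour on a log scale, grey for means above 0 and under 1 TPM and white for 0; members under 1 TPM in every tissue are not drawn. The column of liver is filled for most members, Cyp2e1 and Cyp2d22 are coloured in all 9 tissues, and Cyp2j11 and Cyp2j13 are coloured in kidney.

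The members lie in a few clusters (GENCODE annotation, build GRCm38, all annotated as protein-coding). Chromosome 7 holds 15 members, among them all Cyp2a and Cyp2b genes, Cyp2f2, Cyp2e1 and Cyp2s1, and chromosome 19 holds the 15 Cyp2c genes between 39007019 and 44029208. Chromosome 15 holds the 8 Cyp2d genes, chromosome 4 the 8 Cyp2j genes, chromosome 5 the 7 Cyp3a genes and Cyp2w1, and chromosome 3 Cyp2u1. Since near-identical copies share reads, the 76-base stretches of each member's transcripts were compared with all other annotated genes. The share of stretches found in another gene was over 20% for 8 members, under 1% for 20 and nil for 17 of these. It was 45.4% for Cyp2c40, 42.3% for Cyp2c69, 35.4% for Cyp2c67, 28.1% for Cyp2c68, 21.9% for Cyp2a5 and 21.5% for Cyp2a4, so the split of reads among these is uncertain. Cyp2f2, Cyp2c55, Cyp2c70, Cyp2r1, Cyp2s1 and the Cyp2j members shared none.

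The 192 samples held between 8007523 and 16308175 expected counts (median 14471437), with the thymus libraries lowest. Nfe2l2 was lower in KO than in WT mice in each of the 9 tissues, by 0.25 (Spl) to 1.81 (Cbr) on the log2 scale between ground groups, with the largest adjusted p at 0.00169. In liver its range was 34.8 to 66.2 TPM in WT mice and 13.1 to 24.1 TPM in KO mice, so reads of the gene remained in the knockout. A gene was called where the adjusted p of edgeR's quasi-likelihood test was under 0.05 over all genes tested in the tissue. Fold changes are log2 values from this fit with their standard error (SE). Contrasts that share a group, such as FL_WT against GC_WT and GC_KO against GC_WT, are not independent of each other. Each value stands for 1 mouse.

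Of the 55 members, 45 passed the filter on low counts in at least 1 tissue, 4 of them in all tissues (Cyp2d22, Cyp2e1, Cyp2j6 and Cyp2j9), and 10 in none. This gave 155 pairs of member and tissue. Among these, FL_WT against GC_WT called 10 higher and 9 lower, FL_KO against GC_KO 13 higher and 8 lower, GC_KO against GC_WT 2 higher and 6 lower, and FL_KO against FL_WT 2 higher and 5 lower. The difference between the flight responses of the 2 genotypes was called by edgeR for 0 of the 155 pairs, with 19 at an unadjusted p under 0.05, and for 0 by DESeq2 and limma as well. In each tissue 0% of all genes tested were called for this difference. A response called in 1 genotype and not in the other is therefore not shown to differ between them.

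In liver, 9 of the 37 members tested changed between FL_WT and GC_WT mice, 4 higher and 5 lower (24.3%, where 3.45% of all genes tested were called). Between FL_KO and GC_KO mice 8 changed, 5 higher and 3 lower (21.6%, where 3.34% of all genes were called). The median log2 change of the members was 0.02 and 0.04, against 0.00014 and 0.0097 over all genes, and members were called in both directions. The balance of directions depended on the scale: on log2(TPM + 1) limma called 10 higher and 4 lower in WT livers and 9 higher and 3 lower in KO livers, where the median over all genes was 0.06 and 0.14. The KO count fell to 5 without FL01 and to 4 without FL02. Cyp2c38, Cyp2d26 and Cyp2a22 rose and Cyp2f2 fell in both genotypes. In these bulk samples fewer cells of a type and less RNA per cell cannot be told apart.

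Cyp2f2 (chromosome 7, 27119909 to 27133660) was lower in flight mice of both genotypes and lower again in KO mice. GC_WT livers held 1057, 1118 and 1389 TPM (lowest, median and highest mouse) and FL_WT livers 721, 772 and 894 TPM, a change of -0.62 ± 0.10 (SE, 1.53-fold lower, adjusted p = 0.0017). GC_KO livers held 785, 824 and 929 TPM and FL_KO livers 565, 589 and 680 TPM, a change of -0.60 ± 0.11 (adjusted p = 0.00189). In both genotypes every flight mouse was below every ground mouse. The step from WT to KO was -0.46 ± 0.10 on the ground (adjusted p = 0.00864) and -0.45 ± 0.11 in flight (adjusted p = 0.0151), again without overlap. The flight step of KO mice differed from that of WT mice by 0.01 ± 0.15 (adjusted p = 1.0). The last of these genotype calls was lost with FL04 included, a mouse at 759 TPM (-0.35, adjusted p = 0.104), and without FL09 (adjusted p = 0.0576).

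Other genes of the periportal zone, taken from a list without members (Sds, Hal, Gls2, Pck1, Aldh1b1 and Cdh1), were read beside Cyp2f2. In FL_WT against GC_WT 3 of the 6 were lower and 0 higher: Aldh1b1 (-1.94 ± 0.26, adjusted p = 0.000196), Gls2 (-0.60 ± 0.15, adjusted p = 0.0238) and Cdh1 (-1.65 ± 0.45, adjusted p = 0.0459). In FL_KO against GC_KO 2 were lower, Aldh1b1 (-1.53 ± 0.28, adjusted p = 0.00237) and Gls2 (-0.58 ± 0.15, adjusted p = 0.0366). Of the 7 genes on the pericentral list, which holds no members, Axin2 (0.46 ± 0.17) and Tbx3 (0.53 ± 0.20) shared the lowest adjusted p of edgeR for flight in WT livers (0.158), and Axin2 had the lowest in KO livers (0.40 ± 0.18, adjusted p = 0.266). Slc1a2, a glutamate transporter, was lower in KO mice on the ground (-1.24 ± 0.20, adjusted p = 0.000459) and in flight (-1.44 ± 0.22, adjusted p = 0.000164).

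Members of the pericentral zone read here were Cyp2e1, Cyp2c29, Cyp2c37, Cyp2c50, Cyp2c54, Cyp2a5 and Cyp3a11. EdgeR called Cyp3a11 in WT mice and Cyp2c37 in KO mice, in opposite directions, and the other 5 in neither flight contrast. On log2(TPM + 1) limma called Cyp2e1 (0.64, adjusted p = 0.0419), Cyp2c37 (0.53, adjusted p = 0.0391) and Cyp2c54 (0.59, adjusted p = 0.0225) higher in WT livers. It called Cyp3a11 lower there (-0.58, adjusted p = 0.00721). In KO livers it called Cyp2c37 (0.85, adjusted p = 0.00159) and Cyp2c54 (0.51, adjusted p = 0.0355) higher. Cyp2e1 lay at 4081, 6361 and 7548 TPM in GC_WT and at 8225, 9644 and 10574 TPM in FL_WT livers. These 2 groups did not overlap, but the change of 0.55 ± 0.21 missed the threshold over all genes (adjusted p = 0.174), and in KO mice it was 0.32 ± 0.22 (adjusted p = 0.551). Cyp2c54, a neighbour in the Cyp2c cluster, likewise had separate WT groups, at 122 to 243 TPM on the ground and 252 to 340 TPM in flight (0.49 ± 0.17, adjusted p = 0.122). Cyp2c37 rose in FL_KO livers, from 237, 249 and 318 TPM to 343, 489 and 577 TPM (0.72 ± 0.17, adjusted p = 0.0199). The KO groups of Cyp2c37 did not overlap, and its call was lost without FL01 (adjusted p = 0.0676) or FL02 (adjusted p = 0.0518).

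Cyp2c38, a member whose substrates are less well known, had the smallest adjusted p of all members in liver. GC_WT mice held 18.7, 21.9 and 32.4 TPM and FL_WT mice 38.0, 66.8 and 91.6 TPM, a rise of 1.42 ± 0.17 (2.67-fold, adjusted p = 4.52e-05). In KO mice it went from 22.4, 28.6 and 32 TPM to 57.3, 65.0 and 79.3 TPM, a rise of 1.11 ± 0.18 (2.16-fold, adjusted p = 0.000721). All flight mice were above all ground mice of their genotype, and the call was kept without any 1 of the 23 mice. Its neighbour Cyp2c39, which shares 2.76% of its 76-base stretches with Cyp2c38, was at 0.79 to 1.89 TPM in GC_WT and 1.57 to 3.39 TPM in FL_WT livers, with overlap (0.62 ± 0.29, adjusted p = 0.276).

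Cyp2d26, an abundant member of the Cyp2d cluster, was at 653, 690 and 788 TPM in GC_WT and at 924, 1047 and 1166 TPM in FL_WT livers, a rise of 0.51 ± 0.11 (1.42-fold, adjusted p = 0.0108). In KO livers it went from 574, 622 and 719 TPM to 882, 931 and 1154 TPM (0.49 ± 0.11, adjusted p = 0.013), a call lost without FL02 (0.40, adjusted p = 0.0526) and when only the 2 groups compared were fitted (adjusted p = 0.0699). Neither pair of groups overlapped. Cyp2d10, at 577 to 625.2 TPM in GC_WT and 678 to 769 TPM in FL_WT livers, did not overlap either, but its change of 0.22 ± 0.08 was not called (adjusted p = 0.141). Cyp2d9 stayed within overlapping ranges in all 4 groups.

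Cyp2a22 was near the lower end of what these libraries resolve. It rose from 0.54, 1.21 and 2.59 TPM to 2.70, 6.35 and 11.1 TPM in WT livers (2.06 ± 0.43, 4.17-fold, adjusted p = 0.011) and from 0.88, 2.02 and 2.66 TPM to 4.52, 5.45 and 18.6 TPM in KO livers (2.0 ± 0.43, adjusted p = 0.00938). The groups were separate in both genotypes. Without FL01, the mouse at 18.6 TPM, the KO change was 1.44 (adjusted p = 0.0486). Cyp2a12, which shares 8.86% of the stretches of Cyp2a22 and was at 488 to 589 TPM in GC_WT livers, changed by -0.09 ± 0.13 in WT mice (adjusted p = 0.806).

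**Figure D2:**
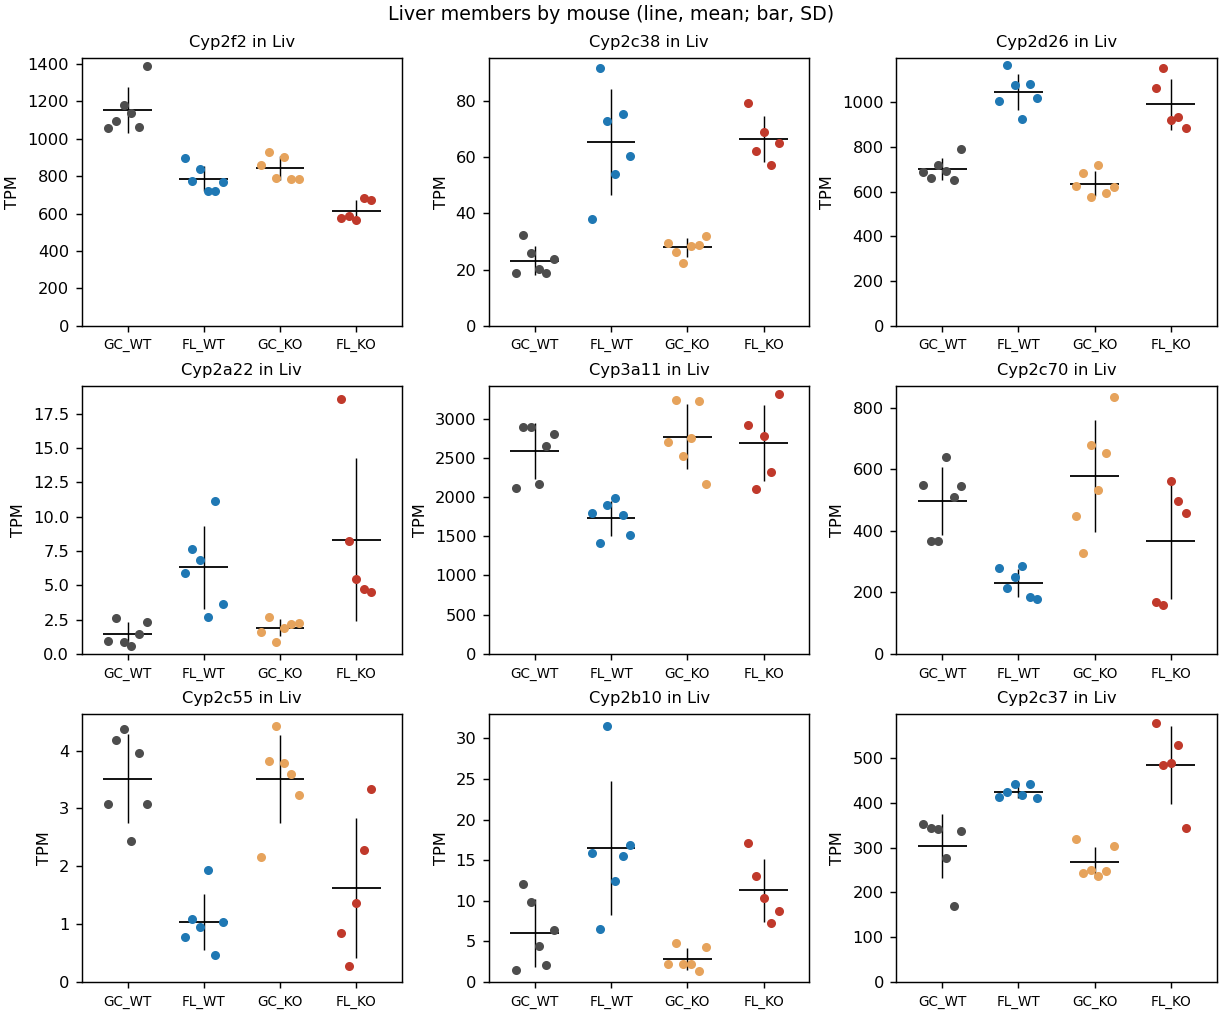
TPM of 9 members in liver for each mouse (points) in the 4 groups, with the group mean (line) and SD (bar), on linear axes that start at 0. Cyp2c38, Cyp2d26 and Cyp2a22 are higher and Cyp2f2 is lower in flight mice of both genotypes without overlap, while FL_KO points of Cyp3a11, Cyp2c70 and Cyp2c55 reach into the range of GC_KO.

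EdgeR called a further 5 members in WT livers and not in KO livers (Cyp3a11, Cyp2c70, Cyp2c55, Cyp2j9 and Cyp2a4). On log2(TPM + 1) limma called Cyp2j9 and Cyp2c55 in KO livers as well. With a replicate block, which matches flight and ground mice of 1 number, edgeR called 2 of them in KO livers as well, Cyp2c70 and Cyp2j9. Mice of 1 number are different animals, and that the number pairs them is not shown. Cyp3a11 fell from 2111, 2725 and 2893 TPM to 1408, 1783 and 1983 TPM (-0.64 ± 0.13, 1.56-fold lower, adjusted p = 0.00848). All FL_WT mice were below all GC_WT mice, while GC_KO livers at 2161, 2731 and 3243 TPM and FL_KO livers at 2107, 2780 and 3318 TPM overlapped (-0.20 ± 0.13, adjusted p = 0.533). The difference between these 2 responses, 0.44 ± 0.18, had an unadjusted p of 0.0249 and an adjusted p of 1.0. In flight, Cyp3a11 was higher in KO than in WT livers by 0.53 ± 0.13 without overlap (adjusted p = 0.0234), a call lost without FL01 (adjusted p = 0.0548), FL12 (0.0794), FL05 (0.0689) or FL10 (0.0595).

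Cyp2c70, the enzyme that makes muricholic acids from chenodeoxycholic acid in mice, fell in WT livers from 367, 528 and 639 TPM to 179, 231 and 284 TPM (-1.15 ± 0.27, 2.22-fold lower, adjusted p = 0.0176). The WT groups were separate. In KO livers it was at 326, 594 and 836 TPM on the ground and at 157, 458 and 562 TPM in flight, where FL01 and FL02 (168 and 157 TPM) stood below the other 3 mice (458 to 562 TPM), and the change of -0.83 ± 0.28 was not called (adjusted p = 0.118), but was with the replicate block (-0.88, adjusted p = 0.0126). Cyp2c55, a CAR and PXR target, was low, at 2.44, 3.51 and 4.37 TPM in GC_WT and 0.47, 0.99 and 1.93 TPM in FL_WT livers (-1.81 ± 0.36, 3.51-fold lower, adjusted p = 0.00793). In KO livers its groups overlapped, at 2.16 to 4.42 TPM and 0.27 to 3.33 TPM. EdgeR did not call this change (-1.29 ± 0.36, adjusted p = 0.0506), but limma on log2(TPM + 1) did (-0.89, adjusted p = 0.018).

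Among the epoxygenases of the Cyp2j cluster, Cyp2j9 rose in WT livers from 6.00, 6.73 and 8.54 TPM to 7.73, 11.2 and 17.2 TPM (0.77 ± 0.17, 1.71-fold, adjusted p = 0.0119), with overlap. In KO livers it was at 6.16 to 9.88 TPM and 10.7 to 15.8 TPM without overlap. EdgeR called it there with the replicate block (0.46, adjusted p = 0.0324) but not without it (0.53 ± 0.17, adjusted p = 0.0961). Limma on log2(TPM + 1) called it without a block (0.62, adjusted p = 0.0134). Cyp2j6 fell in KO livers, from 22.1, 27.7 and 31.8 TPM to 14.9, 19.0 and 20.4 TPM (-0.75 ± 0.15, 1.68-fold lower, adjusted p = 0.00426), with separate groups, and changed by -0.30 ± 0.14 in WT livers (adjusted p = 0.256). The abundant Cyp2j5, at 391.6 to 477.5 TPM in GC_WT livers, was called in neither genotype, nor was Cyp2c23 (also known as Cyp2c44), at 336 to 512 TPM.

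Cyp2r1, a 25-hydroxylase of vitamin D, was at 4.43, 7.06 and 13.0 TPM in GC_KO and 4.11, 4.87 and 6.58 TPM in FL_KO livers (-0.72 ± 0.17, 1.65-fold lower, adjusted p = 0.0198), with overlap. This call was lost without FL01 (adjusted p = 0.061), FL02 (0.0503) or GC11 (0.0526), the mouse at 13.0 TPM, and on the TPM scale (-0.45, adjusted p = 0.0877). In WT livers Cyp2r1 changed by -0.22 ± 0.16 (adjusted p = 0.551).

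Cyp2b10, the classical CAR target, was at 1.38, 2.26 and 4.79 TPM in GC_KO and at 7.30, 10.4 and 17.1 TPM in FL_KO livers, a rise of 1.87 ± 0.47 (3.66-fold, adjusted p = 0.027) without overlap. With the replicate block it was 1.81 and the adjusted p was 0.05, so the call was lost. It was also lost without 1 of 6 mice (FL01, FL02, GC01, GC04, GC09 or GC11, adjusted p 0.0504 to 0.0823). In WT livers the values were 1.52, 5.39 and 12.0 TPM on the ground and 6.52, 15.7 and 31.5 TPM in flight, with overlap (1.36 ± 0.43, adjusted p = 0.0756). On log2(TPM + 1) limma called this rise (1.43, adjusted p = 0.0278).

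**Figure D3:**
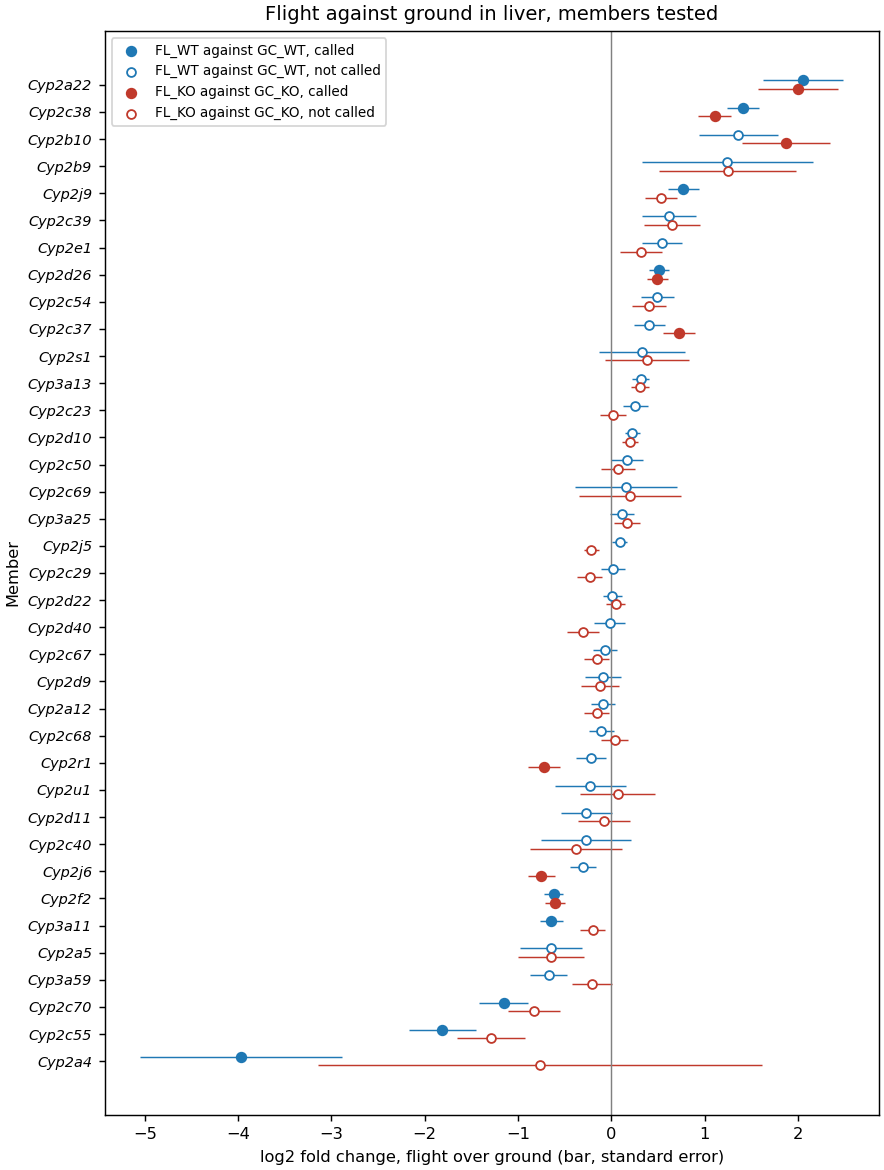
Log2 fold change of flight over ground in liver for the 37 members tested, in WT mice (blue) and KO mice (red), with SE bars; filled points were called. Cyp2a22 and Cyp2b10 stand at the upper end and Cyp2c70, Cyp2c55 and Cyp2a4 at the lower end, and the change of Cyp2a4 in WT mice rests on 1 ground mouse.

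Cyp2a4 was called lower in FL_WT livers (-3.97 ± 1.08, adjusted p = 0.0445), but this rested on 1 library. Mouse GC08 held 167 TPM, and the other 5 GC_WT mice held 0.69 to 2.42 TPM, next to 0.65 to 3.20 TPM in FL_WT livers. Without GC08 the change was 0.16 (adjusted p = 0.928). In the same mouse Cyp2d9, which is higher in males, was at 630.3 TPM against 1203 to 1488 TPM in the other GC_WT livers. Among the members known to be higher in female liver, Cyp2b9 was at 0.12 TPM in GC08 (other GC_WT mice 0.11 to 3.31 TPM), and Cyp2b13, Cyp3a16 and Cyp3a44 were at 0.41 TPM or less in every GC_WT liver. Cyp2c69, another of these, had a mean of 12.8 TPM over GC_WT livers, and its level in GC08 was not compared.

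In liver, 4 of the 37 members tested changed between GC_KO and GC_WT mice, 1 higher and 3 lower (10.8%, where 2.64% of all genes were called), and 5 between FL_KO and FL_WT mice, 2 higher and 3 lower (13.5%, where 3.65% of all genes were called). Leaving out 1 mouse moved these counts, the first to 7 without GC02 and the other to 8 without FL02 or GC08 and to 3 without FL09. In kidney, 3 of the 20 members tested changed on the ground (15.0%, where 1.61% of all genes were called) and 2 in flight (10%, where 1.83% were called). The count in flight was 4 without FL11, 5 with DESeq2 (1 higher and 4 lower) and 5 without the filter on low counts (2 higher and 3 lower). Cyp2a5, which hydroxylates coumarin and nicotine, was lower in KO mice in all 4 of these comparisons.

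In liver, Cyp2a5 was at 552, 893 and 1216 TPM in GC_WT, 385, 587 and 735 TPM in FL_WT, 147, 197 and 266 TPM in GC_KO and 52.1, 102 and 280 TPM in FL_KO mice. All KO mice were below all WT mice. The genotype step was -2.13 ± 0.35 on the ground (4.39-fold lower, adjusted p = 0.000419) and -2.13 ± 0.37 in flight (adjusted p = 0.000972). Flight changed it by -0.64 ± 0.33 in WT and -0.64 ± 0.35 in KO livers, with overlap, and neither was called (adjusted p = 0.346 and 0.41).

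In kidney, the 3 GC_WT mice held 157, 185 and 191 TPM of Cyp2a5, the FL_WT mice 128, 160 and 168 TPM, the GC_KO mice 25.3, 25.8 and 52.5 TPM and the FL_KO mice 18.0, 30.6 and 38.6 TPM. The step was -2.38 ± 0.31 on the ground (5.19-fold lower, adjusted p = 0.000871) and -2.38 ± 0.31 in flight (adjusted p = 0.000753). Cyp2a4, which shares reads with Cyp2a5, was at 516, 525.9 and 576 TPM in GC_WT, 534, 572 and 607 TPM in FL_WT, 292, 306 and 346 TPM in GC_KO and 264, 272 and 303 TPM in FL_KO kidneys. Its step was smaller, -0.79 ± 0.10 on the ground (1.73-fold lower, adjusted p = 0.00077) and -1.04 ± 0.10 in flight (2.05-fold lower, adjusted p = 6.43e-05). For both genes all WT kidneys were above all KO kidneys. Cyp2s1, an enzyme of epithelia, was at 6.78 to 7.07 TPM in GC_WT and 8.94 to 9.71 TPM in GC_KO kidneys (0.43 ± 0.10, adjusted p = 0.0485), and 10 of the 12 fits that left out 1 kidney lost this call, with adjusted p up to 0.18.

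In liver, Cyp2a4 was at 0.09 to 0.60 TPM in GC_KO mice, below every GC_WT mouse, a fitted step of -6.34 ± 1.34 with GC08 (adjusted p = 0.00695) and -2.22 without it (adjusted p = 0.0262). This call was lost on log2(TPM + 1) (-1.89, adjusted p = 0.258) and when only the 2 groups compared were fitted (adjusted p = 0.0813). In flight the groups were separate too, at 0.65 to 3.20 TPM and 0.09 to 0.36 TPM, with a step of -3.14 ± 1.81 that was not called (adjusted p = 0.397). Cyp2a5 averaged 872 TPM over GC_WT livers, and 20.5% of the 76-base stretches of Cyp2a4 are also found in it. The part of Cyp2a5 reads in these low liver values of Cyp2a4 was not tested.

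Cyp2a4 and Cyp2a5 have nearly the same sequence around their start sites. It is shown because edgeR called these members lower in GC_KO than in GC_WT mice in both liver and kidney. In liver the call of Cyp2a4 has the limits given above. The windows of RefSeq (GRCm38.p6, 250 bases before to 50 bases after the start site, plus strand) are chr7:26306942-26307241 and chr7:26835089-26835388. Aligned, 294 bases were identical, 5 differed and 2 had no partner, an identity of 97.7%. Capitals mark the bases that differed or had no partner.
Cyp2a4: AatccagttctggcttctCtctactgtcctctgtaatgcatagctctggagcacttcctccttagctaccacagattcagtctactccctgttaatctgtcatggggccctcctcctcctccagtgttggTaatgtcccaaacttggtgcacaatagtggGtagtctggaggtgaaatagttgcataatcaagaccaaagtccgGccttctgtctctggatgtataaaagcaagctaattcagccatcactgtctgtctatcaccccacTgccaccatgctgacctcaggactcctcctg
Cyp2a5: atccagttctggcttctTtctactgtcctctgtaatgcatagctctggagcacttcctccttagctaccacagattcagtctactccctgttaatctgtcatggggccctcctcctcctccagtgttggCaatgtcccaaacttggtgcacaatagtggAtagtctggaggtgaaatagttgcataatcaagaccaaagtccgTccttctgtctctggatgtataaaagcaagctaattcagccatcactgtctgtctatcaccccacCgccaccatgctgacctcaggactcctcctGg

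Neither window holds the letters TGACNNNGC, the core of the antioxidant response element that Nrf2 binds, on either strand. Of the 47 members with such a window, 3 hold these letters (Cyp2c65, Cyp2c66 and Cyp2j6), and 12.4% of the 32851 windows of all genes do. The letters TTCNNNGAA of STAT5-type sites are in 2 members (Cyp2j11 and Cyp2j12) and 8.3% of all windows. The letters TTGCNNCAA, which are not assigned to a factor here, are in 2 members (Cyp2c37 and Cyp2c50) and 2.08% of all windows. A match is a description of these letters in this stretch, not of a site.

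**Figure D4:**
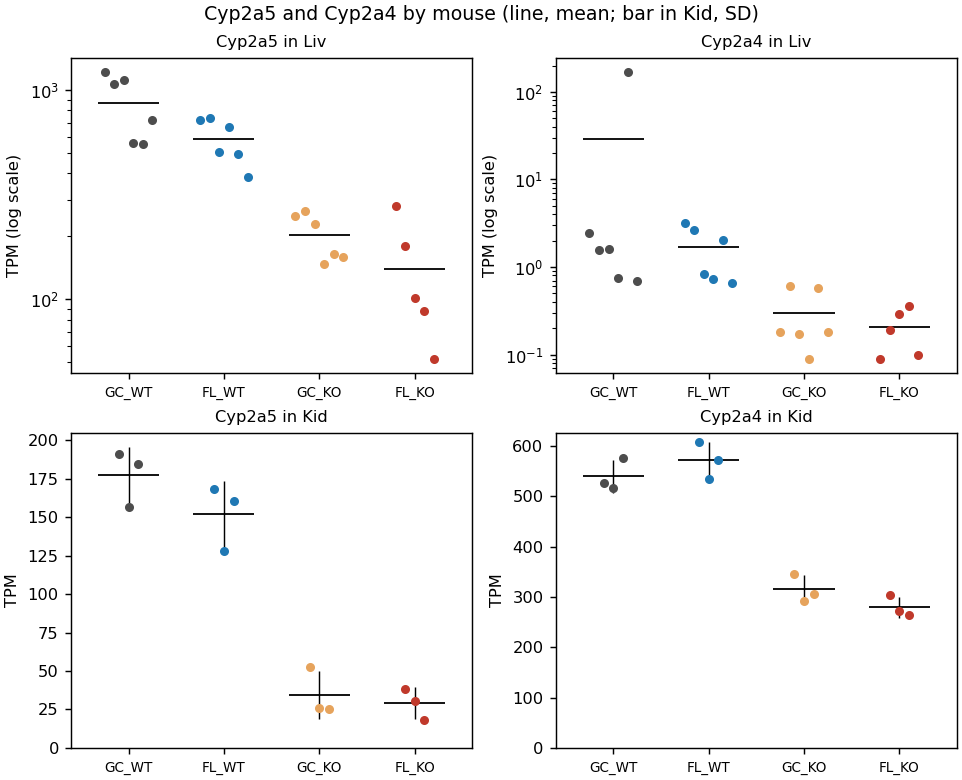
TPM of Cyp2a5 (left) and Cyp2a4 (right) in liver (top, log axes) and kidney (bottom, linear axes from 0 with SD bars) for each mouse in the 4 groups, with the group mean as a line. KO points lie below WT points in all 4 panels, and 1 GC_WT liver of Cyp2a4 stands at 167 TPM.

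Among the other members, Cyp2c67 was higher in GC_KO than in GC_WT livers, at 284, 402 and 468 TPM against 179, 286 and 338 TPM (0.54 ± 0.13, adjusted p = 0.0222), with overlap, and the call was lost without GC05 (adjusted p = 0.0618), GC06 (0.0612) or GC12 (0.0572). In flight, Cyp2c68 was higher in KO livers, at 242, 337 and 411 TPM against 187, 201 and 258 TPM (0.54 ± 0.14, adjusted p = 0.0314), with overlap. Its call was lost with FL04 included (0.48, adjusted p = 0.0629) and without 1 of 8 flight mice (FL09, FL11, FL12, FL03, FL06, FL07, FL08 or FL10, adjusted p 0.0522 to 0.104). Both members share over 20% of their stretches, most with Cyp2c40. Cyp2c29, a CAR target, was lower in FL_KO than in FL_WT livers, at 507, 689 and 715 TPM against 691, 985 and 1103 TPM (-0.61 ± 0.14, adjusted p = 0.0097), with overlap, a call lost when only the 2 groups compared were fitted (adjusted p = 0.0634). On the ground its groups were separate, at 575 to 784 TPM in KO and 823 to 924 TPM in WT livers, without a call (-0.36 ± 0.13, adjusted p = 0.167).

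A list of 29 regulators and cofactors of these enzymes was read from the same fits (nuclear receptors, liver transcription factors, electron donors, genes of growth hormone and clock signalling, Nfe2l2, and the Cyp1 genes). All 29 were tested in liver. CAR itself (Nr1i3) was at 123, 165 and 203 TPM in GC_WT, 181, 209 and 253 TPM in FL_WT, 32.4, 47.8 and 61.1 TPM in GC_KO and 54.0, 89.1 and 103 TPM in FL_KO livers. It was lower in KO livers by 1.96 ± 0.19 on the ground (adjusted p = 2.79e-07) and 1.48 ± 0.20 in flight (adjusted p = 4.87e-05) on the log2 scale, without overlap. Flight raised it in KO livers (0.79 ± 0.20, adjusted p = 0.0265) and not detectably in WT livers (0.31 ± 0.19, adjusted p = 0.438). The difference between these responses was 0.48 ± 0.27 and was not called. Of its targets, Cyp2b10 rose with flight in KO livers, and in WT livers by limma on log2(TPM + 1) (1.43, adjusted p = 0.0278) but not by edgeR. Cyp2c55 fell with flight, called in WT livers by edgeR (-1.81, adjusted p = 0.00793) and in KO livers by limma on log2(TPM + 1) (-0.89, adjusted p = 0.018). Cyp3a11 fell in WT livers (edgeR, -0.64, adjusted p = 0.00848) and was not called in KO livers, and Cyp2c29 was called in neither flight contrast. Between genotypes, Cyp2c29 was lower in FL_KO than in FL_WT livers and Cyp3a11 was higher in that comparison. EdgeR called Cyp2b10 and Cyp2c55 in neither genotype contrast.

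With Nr1i3 higher, FL_KO livers were lower than GC_KO livers in the electron donors Cyb5b (-0.61 ± 0.15, adjusted p = 0.0205) and Cyb5r3 (-0.61 ± 0.08, adjusted p = 0.000243). Por and PXR (Nr1i2) changed in none of the 4 liver contrasts, with adjusted p of 0.843 or more. In FL_WT against GC_WT livers the lowest adjusted p of edgeR among the 29 was 0.0504 (Cyb5r3, -0.28 ± 0.08). Cyb5a, which passes electrons to several members, was lower in KO kidneys on the ground (-0.53 ± 0.08, adjusted p = 0.00282) and in flight (-0.38 ± 0.08, adjusted p = 0.0273). It was lower in KO brown fat as well, by -0.76 ± 0.09 on the ground (adjusted p = 1.47e-05) and -0.57 ± 0.10 in flight (adjusted p = 0.00161). In eWAT Cyb5a was lower in KO mice on the ground (-0.49 ± 0.09, adjusted p = 0.00212) and was not called between genotypes in flight.

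Each kidney group had 3 mice, which limits what flight changes could be detected. EdgeR's quasi-likelihood test called 0 of 20 in FL_WT against GC_WT (0.119% of all genes were called, 4 members had an unadjusted p under 0.05, and DESeq2 and limma called 0), and 0 of 20 in FL_KO against GC_KO (0.159% of all genes, 5 members at an unadjusted p under 0.05, 1 called by DESeq2 and 0 by limma). Cyp2e1 was at 1280, 1436 and 1594 TPM in GC_WT and 981, 1127 and 1337 TPM in FL_WT kidneys (-0.37 ± 0.15, adjusted p = 0.66). The epoxygenase Cyp2j5 held 928, 1032 and 1073 TPM in GC_WT and 1049, 1081 and 1159 TPM in FL_WT kidneys (0.04 ± 0.08, adjusted p = 0.979). Cyp2j13 and Cyp2j11, whose means in the other 8 tissues of GC_WT mice were under 1 TPM, held 238 to 289 TPM and 132 to 152 TPM in GC_WT kidneys. EdgeR called neither in any contrast. DESeq2 called Cyp2j11 (-0.40, adjusted p = 0.0195) and Cyp2j5 (-0.24, adjusted p = 0.033) lower in FL_KO than in FL_WT kidneys.

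Of 24 members tested in eWAT, 4 changed between FL_WT and GC_WT mice (1 higher, 3 lower, 16.7%, where 13.4% of all genes were called) and 3 between FL_KO and GC_KO mice (1 higher, 2 lower, 12.5%, where 7.71% of all genes were called). These shares were close to those over all genes. Cyp2f2 and Cyp2e1 fell and Cyp2d22 rose in both genotypes.

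Cyp2f2 in eWAT was at 44.7, 76.3 and 206 TPM in GC_WT and at 1.26, 3.18 and 5.19 TPM in FL_WT mice (-5.00 ± 0.47, 32-fold lower, adjusted p = 1.35e-06). In KO mice it was at 6.91, 13.0 and 22.8 TPM on the ground and at 0.39, 1.89 and 2.72 TPM in flight (-2.81 ± 0.53, 6.99-fold lower, adjusted p = 0.00284). Flight and ground mice were separate in both genotypes, as were GC_KO and GC_WT mice (-2.98 ± 0.41, 7.90-fold lower, adjusted p = 8.97e-05). That was 1 of 24 members called between the ground groups (4.17%, where 2.74% of all genes were called), and in flight edgeR called 0 of 24 (1.06% of all genes were called, 2 members had an unadjusted p under 0.05, and DESeq2 and limma called 0). The difference between the flight steps of Cyp2f2, 2.19 ± 0.72, had an unadjusted p of 0.00556 and an adjusted p of 0.416.

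Cyp2e1, the leading member of eWAT, was at 5067, 7349 and 10479 TPM in GC_WT and at 1245, 1646 and 3660 TPM in FL_WT mice (-2.01 ± 0.26, 4.02-fold lower, adjusted p = 3.75e-05). In KO mice it fell from 3841, 4687 and 7073 TPM to 1803, 1959 and 3225 TPM (-1.25 ± 0.27, 2.37-fold lower, adjusted p = 0.00694). No flight mouse reached a ground mouse of its genotype. In liver the same gene was not called and had a positive sign. With it, the summed TPM of members in eWAT was 7515 ± 1934 in GC_WT, 2071 ± 874 in FL_WT, 5244 ± 1145 in GC_KO and 2284 ± 584 in FL_KO mice.

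Cyp2d22, the most widely expressed Cyp2d, went from 21.8, 31.1 and 34.7 TPM to 34.0, 43.9 and 62.5 TPM in WT (0.51 ± 0.11, adjusted p = 0.00424, with overlap) and from 34.1, 38.8 and 48.3 TPM to 49.6, 54.8 and 59.8 TPM in KO eWAT (0.45 ± 0.12, adjusted p = 0.0224, without overlap). The KO call was lost without FL01 (adjusted p = 0.0515). Cyp2s1 was called lower in FL_WT eWAT (4.10, 5.12 and 9.98 TPM on the ground, 1.40, 2.67 and 7.93 TPM in flight, -0.98 ± 0.31, adjusted p = 0.0388), with overlap. This call was lost without 1 of 8 mice (GC05, GC06, GC07, FL05, FL06, FL07, FL08 or FL10, adjusted p 0.0533 to 0.108).

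Members typical of liver were detected in eWAT at low and uneven levels. Summed hepatocyte markers (Alb, Apoa1, Apoh, Ahsg, Fgb, Ttr and Serpina1c) were at 13.4 to 488 TPM in GC_WT, 18.1 to 901 TPM in FL_WT, 15.9 to 1088 TPM in GC_KO and 18.1 to 180 TPM in FL_KO mice. Cyp3a11 was at 0 to 22.0, 0 to 20.8, 0 to 39.0 and 0 to 3.68 TPM in these groups. The median log2 change over the 24 members was -2.64 between FL_KO and GC_KO mice, against -0.01 over all genes. The part of hepatocyte transcripts in these values was not tested. The adipocyte markers Adipoq, Plin1, Cidec, Lep and Fabp4 summed to 35032 to 44267 TPM in GC_WT and 39972 to 49718 TPM in FL_WT mice, and to 27939 to 37978 TPM in GC_KO and 41765 to 44547 TPM in FL_KO mice, the KO groups without overlap. Endothelial markers were at 308 to 406 TPM in GC_WT and 447 to 594 TPM in FL_WT mice and macrophage markers at 104 to 141 TPM and 145 to 297 TPM, both without overlap, while both overlapped in KO mice. The part of these cell types in the eWAT values was not tested. Epididymal epithelium, a possible neighbour, was at 0 to 20.8 TPM and mesothelium at 5.6 to 181 TPM.

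In brown fat, Cyp2b10 fell with flight. It was at 38.2, 77.1 and 160 TPM in GC_WT and at 13.2, 23.5 and 54.5 TPM in FL_WT mice (-2.02 ± 0.38, 4.05-fold lower, adjusted p = 0.000684). In KO mice it was at 19.1, 40.5 and 49.96 TPM on the ground and at 9.21, 11.2 and 23.6 TPM in flight (-1.77 ± 0.40, 3.41-fold lower, adjusted p = 0.00185). In WT mice the overlap came from 1 ground mouse (GC10, 38.2 TPM) and 1 flight mouse (FL06, 54.5 TPM), and in KO mice 1 ground mouse (GC11, 19.1 TPM) was below 2 flight mice (FL09 and FL11, 21.8 and 23.6 TPM). In liver the same gene was higher in FL_KO than in GC_KO mice.

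Cyp2b10 was the single member of 9 tested in iBAT called in WT mice (11.1%, where 19.2% of all genes were called), and 3 were called lower in KO mice (33.3%, where 33.5% of all genes were called). These shares were at or below those over all genes. The WT count was 2 without FL01, FL02, FL11 or FL12. Between genotypes edgeR called 0 of 9 on the ground (2.14% of all genes, 4 members at an unadjusted p under 0.05, 2 called by DESeq2 and 0 by limma) and 0 of 9 in flight (1.5% of all genes, 3 members at an unadjusted p under 0.05, 0 by DESeq2 and limma). The other 2 calls in KO mice depended on the scale. Cyp2j6 was at 6.38 to 8.78 TPM in GC_KO and 6.82 to 8.53 TPM in FL_KO mice, a change of -0.43 ± 0.10 in the count fit (adjusted p = 0.00149) but of 0.0050 on log2(TPM + 1) (adjusted p = 0.959). Cyp2d22 was at 25.4 to 33.9 TPM and 27.0 to 33.3 TPM, a change of -0.33 ± 0.10 in the count fit (adjusted p = 0.0141) and 0.097 on the TPM scale (adjusted p = 0.452). The median over all genes of this contrast was 0.04 in the count fit and 0.38 on the TPM scale. The fall of Cyp2b10 was called on both scales.

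Of the iBAT libraries, 3 flight libraries (FL06, FL08 and FL11) held summed skeletal muscle markers of 6385, 3098 and 7856 TPM, against 0.63 to 66.8 TPM in the others. Cyp2b10 was at 54.5, 13.2 and 23.6 TPM in these 3 mice. Endothelial markers were at 91.9 to 126 TPM in GC_WT and 133 to 221 TPM in FL_WT iBAT, and macrophage markers at 3.74 to 6.04 TPM in GC_KO and 7.73 to 15.2 TPM in FL_KO iBAT, each without overlap, and their part in the fall of Cyp2b10 was not tested. Without the 3 libraries, in a fit chosen after seeing the data, its change was -2.25 in WT mice (adjusted p = 0.000686) and -1.95 in KO mice (adjusted p = 0.000849).

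**Figure D5:**
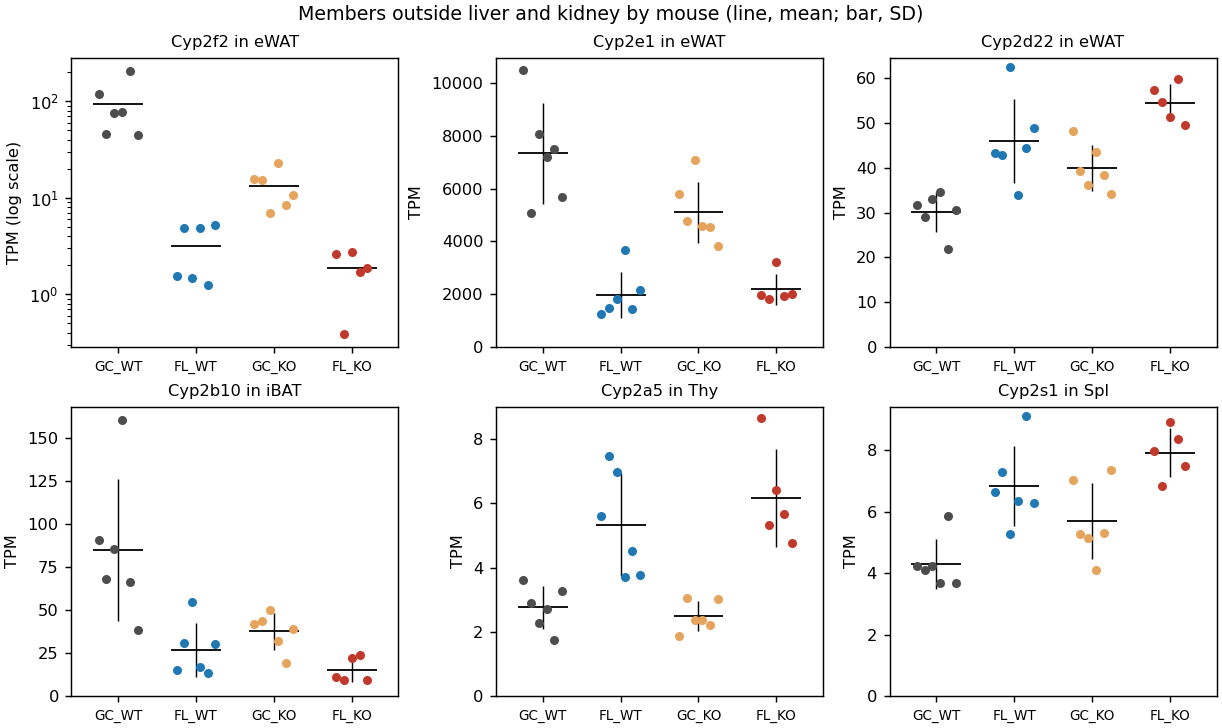
TPM of 6 pairs of member and tissue for each mouse (points) in the 4 groups, with the group mean (line) and SD (bar); Cyp2f2 in eWAT has a log axis without SD and the others start at 0. Cyp2f2 and Cyp2e1 in eWAT and Cyp2b10 in iBAT are lower in flight mice, and Cyp2d22 in eWAT, Cyp2a5 in Thy and Cyp2s1 in Spl are higher.

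In spleen, 2 of 10 members tested rose in FL_WT mice (20%, where 2.26% of all genes were called), and DESeq2 called 2 lower besides (Cyp2d9 and Cyp3a11). Mesothelial markers were at 22.6 to 34.6 TPM in GC_WT and 43.0 to 70.1 TPM in FL_WT spleens without overlap, and their part in these values was not tested. Cyp2s1 was at 3.67, 4.18 and 5.87 TPM on the ground and 5.28, 6.49 and 9.13 TPM in flight (0.66 ± 0.14, 1.57-fold, adjusted p = 0.0192), with 1 ground mouse inside the flight range. In KO spleens it was at 4.10 to 7.36 TPM and 6.85 to 8.93 TPM, where edgeR called 0 of 10 members (0.53 ± 0.14, adjusted p = 0.101; 0.668% of all genes were called, 2 members had an unadjusted p under 0.05, DESeq2 called 1 and limma 0). Cyp2u1, a fatty acid hydroxylase, was at 1.11 to 1.75 TPM and 1.63 to 3.09 TPM in WT mice (0.51 ± 0.13, adjusted p = 0.044), a call lost without FL09 (adjusted p = 0.05) and without GC03 (adjusted p = 0.0987), a spleen with hepatocyte markers at 253 TPM against 22.3 to 101 TPM in the others. Between genotypes edgeR called 0 of 10 on the ground (1.13% of all genes, 4 at an unadjusted p under 0.05) and 0 of 10 in flight (1.16% of all genes, 0 at an unadjusted p under 0.05), as did DESeq2 and limma.

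Thymus held these members at a few TPM or less. In FL_WT mice 3 of 10 tested rose (30.0%, where 22.8% of all genes were called), and in FL_KO mice 7 of 10 (70.0%, where 38.2% of all genes were called). Cyp2a5 went from 1.75, 2.81 and 3.62 TPM to 3.69, 5.07 and 7.46 TPM in WT (0.70 ± 0.18, 1.63-fold, adjusted p = 0.00744) and from 1.87, 2.37 and 3.06 TPM to 4.77, 5.66 and 8.65 TPM in KO mice (1.05 ± 0.19, 2.06-fold, adjusted p = 0.000159), without overlap. It was not lower in KO thymus, with a genotype step of -0.06 ± 0.20 on the ground (adjusted p = 0.916).

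Cyp2j6 rose in thymus from 0.35 to 0.76 TPM on the ground to 0.86 to 1.52 TPM in flight in WT mice (0.67 ± 0.17, adjusted p = 0.0061) and from 0.43 to 0.67 TPM to 0.84 to 1.22 TPM in KO mice (0.63 ± 0.18, adjusted p = 0.0077). Cyp2d22 rose by 0.40 ± 0.15 (adjusted p = 0.0486) and 0.49 ± 0.16 (adjusted p = 0.0147), with overlap. The WT call of Cyp2d22 was lost without FL01, FL02, FL11 or FL12 (adjusted p 0.0534 to 0.0636), under DESeq2 (adjusted p = 0.0677) and with the replicate block, and the KO call without FL01 (adjusted p = 0.0518). In KO mice Cyp2g1 (1.46 ± 0.36, adjusted p = 0.00218), Cyp2s1 (1.27 ± 0.29, adjusted p = 0.00111), Cyp2f2 (0.88 ± 0.29, adjusted p = 0.0184) and Cyp2j9 (0.57 ± 0.21, adjusted p = 0.0352) were higher as well. Of these, Cyp2f2 was lost without FL09 (adjusted p = 0.0512) or FL11 (0.0507), and Cyp2j9 without FL09 (0.103) or FL12 (0.0943). The mean of Cyp2s1 was under 1 TPM in both groups, and whether its call held in the repeated fits was not read.

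Marker sums of several cell types differed beside them. Adipocyte markers summed to 44.1 to 73.5 TPM in GC_WT, 80.4 to 120 TPM in FL_WT, 28.2 to 67.3 TPM in GC_KO and 48.0 to 116 TPM in FL_KO thymus, separate in WT and overlapping in KO mice. Without overlap in KO mice, B cell markers were at 3.32 to 6.12 TPM on the ground and 8.27 to 15.0 TPM in flight, macrophage markers at 22.5 to 30.4 TPM and 36.7 to 49.1 TPM and mesothelial markers at 2.25 to 4.54 TPM and 5.71 to 8.20 TPM. Thymocyte markers summed to 1974 to 2340, 1621 to 2037, 1353 to 2205 and 1296 to 1488 TPM in these groups. The part of a changed cell make-up in the thymus values was not tested. Between genotypes edgeR called 0 of 10 members on the ground (3.81% of all genes, 1 at an unadjusted p under 0.05) and 0 of 10 in flight (2.64% of all genes, 1 at an unadjusted p under 0.05), as did DESeq2 and limma.

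In temporal bone edgeR called 0 of 14 members in every contrast. The share of all genes called was 0% in FL_WT against GC_WT, 0% in FL_KO against GC_KO, 0.198% in GC_KO against GC_WT and 0.203% in FL_KO against FL_WT, and 1, 0, 1 and 0 members had an unadjusted p under 0.05. DESeq2 called 1 member in the first of these and limma 0 in all. Cyp2e1 was at 37.3 to 147 TPM in GC_WT and 10.2 to 34.8 TPM in FL_WT mice without overlap (-1.89 ± 0.43, adjusted p = 0.798). In the same groups adipocyte markers were at 339 to 964 TPM and 135 to 602 TPM and hepatocyte markers at 23.3 to 2176 TPM and 21.8 to 100 TPM, with overlap, and their part in the level of Cyp2e1 was not tested. Cyp2f2 spread from 14.5 to 472 TPM within GC_WT, where markers of respiratory and secretory epithelium summed to 50.3 to 6231 TPM. The 4 groups of Cyp2f2 overlapped throughout.

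In mandibular bone, where FL_KO had 2 mice, edgeR called 0 of 21 members in every contrast, as did DESeq2 and limma. The share of all genes called was 0% and 0% for flight in WT and KO mice and 0.244% and 0.208% for genotype on the ground and in flight. The counts of members at an unadjusted p under 0.05 were 11 and 0 for flight and 2 and 9 for genotype. Beside these, 2 of the 3 FL_WT mice, FL03 and FL05, held the highest hepatocyte markers (195 and 139 TPM, against 17.7 to 66.3 TPM in the others). Cyp3a11 was at 1.03, 4.0 and 5.57 TPM in FL_WT and 0.84, 0.98 and 1.28 TPM in GC_WT mice (1.75 ± 0.58, adjusted p = 0.44). The part of hepatocyte transcripts in these values was not tested.

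In cerebrum edgeR called 0 of 10 in FL_WT against GC_WT (0.0244% of all genes, 1 member at an unadjusted p under 0.05), 0 in FL_KO against GC_KO (0.0061% of all genes, 0 members), 0 in GC_KO against GC_WT (0.836% of all genes, 1 member) and 0 in FL_KO against FL_WT (0.531% of all genes, 1 member), as did DESeq2 and limma. Cyp2j9 was at 37.9, 40.9 and 44.2 TPM in GC_WT, 34.3, 36.4 and 42.0 TPM in FL_WT, 39.2, 43.9 and 49.2 TPM in GC_KO and 38.9, 39.9 and 44.4 TPM in FL_KO mice, with overlap throughout. Cyp2d22, at 16.8 to 22.2 TPM in GC_WT, and Cyp2j6, at 11.3 to 13.4 TPM, did not pass the test in any contrast.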

How the data were processed

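Total RNA was sequenced by the authors as strand-specific single reads, poly(A)-selected except in thymus, where ribosomal RNA was removed. Per the submitters' processing notes, reads were aligned with STAR (2.6.1) and quantified with RSEM (1.3.1) on the mm10 mouse genome, and the strand setting is not given in the sources used here. The authors deposited 1 table with RSEM expected counts per gene, not normalized, and with TPM values, which the authors scaled per gene length and library total. Its 192 FPKM columns were not used.

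Samples were grouped by GEO's labels, 184 of 192 were used, and FL04 (8 samples) was left out of every main comparison. Expected counts were rounded to whole numbers. For each tissue the 4 groups were fitted together with edgeR's quasi-likelihood test (4.0.16 in R 4.3.3, filterByExpr, TMM), with Benjamini-Hochberg adjustment over all genes tested there and a call at an adjusted p under 0.05. The SE is the log2 change over the square root of F. The script was tested on simulated data. Members were named where their mean was at least 1 TPM in a group and they were called (at most 10 per contrast in liver and kidney and 6 elsewhere), where they were among the 3 highest of a tissue, or by role. The members and lists were chosen with earlier results of these data known. The fits were repeated with DESeq2 (1.42.0) and with limma (3.58.1) after adding 1 to TPM and taking log2 (genes averaging at least 1 TPM). They were also repeated with other size factors, without the filter, on only the groups compared, with FL04 and with a replicate block. Fits without 1 mouse covered every mouse in Liv, Kid, MdB and eWAT. In TpB, iBAT, Spl, Thy and Cbr they covered only the FL_KO mice, with GC03 besides in Spl. Flight and ground mice of 1 number are different animals. Same-numbered deviations correlated over 0.1 in all 5 pairs of KO livers (0.222 to 0.369), and the numbers were taken as pairs there alone. Mice of unlike number were not compared, so this correlation cannot show that the numbers pair mice. Promoter windows came from RefSeq (GRCm38.p6) and positions from GENCODE (GRCm38).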

Additional observations from a re-analysis of the deposited data

Results flagged for a closer look

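In 104 groups of 5 or 6 mice for the members named, 9 held a mouse far from all others of its group. The limit used is passed by chance in about 1 in 20 independent groups, and these groups share mice across members, so the count cannot be read against that share. In liver, mouse FL01 held 18.6 TPM of Cyp2a22 (other FL_KO mice 4.52 to 8.23 TPM), GC08 held 167 TPM of Cyp2a4 (other GC_WT mice 0.69 to 2.42 TPM) and 630.3 TPM of Cyp2d9 (1203 to 1488 TPM), and GC10 held 1389 TPM of Cyp2f2 (1057 to 1180 TPM). In spleen, GC03 held 37.05 TPM of Cyp2e1 (8.86 to 15.47 TPM) and GC08 held 5.87 TPM of Cyp2s1 (3.67 to 4.24 TPM). In eWAT, FL09 held 3225 TPM of Cyp2e1 (1803 to 2017 TPM) and FL03 held 7.93 TPM of Cyp2s1 (1.40 to 3.61 TPM). In thymus, GC03 held 4.30 TPM of Cyp2f2 (1.5 to 2.27 TPM).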

How the results depend on the processing

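Of 1279 values of the named members under the alternatives, 1171 kept their direction and their call, 105 kept the direction without the call and 3 turned. Cyp2a4 in FL_WT livers went to 0.16 without GC08 (adjusted p = 0.928), and leaving out 1 mouse at a time gave -4.30 to 0.16. On log2(TPM + 1), FL_KO against GC_KO in iBAT gave 0.0050 for Cyp2j6 (adjusted p = 0.959) and 0.097 for Cyp2d22 (adjusted p = 0.452), where the median over all genes was 0.38. DESeq2 called 13 pairs of member and tissue in FL_KO against FL_WT, where edgeR called 7, and the cause was not tested. Leaving out 1 mouse at a time gave 18 to 20 called pairs in FL_WT against GC_WT and 17 to 23 in FL_KO against GC_KO. It gave 7 to 11 in GC_KO against GC_WT, 5 to 10 in FL_KO against FL_WT and 0 for the difference of the flight responses. In TpB, iBAT, Spl, Thy and Cbr only FL_KO mice, and GC03 in Spl, were left out. Calls in these tissues were therefore not refitted without any of the other mice. With the replicate block the flight contrasts called 18 (WT) and 19 (KO). In KO livers it ended the call of Cyp2b10 and added Cyp2c70 and Cyp2j9. Where the numbers were not taken as pairs, it added Cyp2e1 and Cyp2d10 in WT livers and Cyp2j6 in WT iBAT. It ended calls of Cyp2a4 in WT livers, Cyp2s1 in eWAT, Cyp2u1 in Spl, and Cyp2d22, Cyp2f2 and Cyp2j9 in Thy. The block could not be fitted across genotypes, whose numbers differ, and was not run in Kid and MdB, where the groups share at most 2 numbers. Groups of 2 or 3 mice in Kid and MdB, and members near 1 TPM, limit what differences could be detected.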

Other observations

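Flight mouse FL04, which was left out above, was compared with the other FL_KO mice for 32 pairs of named member and tissue. It lay within their range in 17, below in 8 and above in 7. In liver it was above for Cyp2f2 (759 TPM), Cyp2a5 (334 TPM), Cyp2c29 (747 TPM), Cyp2b10 (32.5 TPM) and Cyp2j6 (26.9 TPM), and in eWAT it was below for Cyp2e1 (1389 TPM).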
